A study of Mus musculus with 12 samples.

Results

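Interferon-stimulated genes are the genes that cells switch on when they sense interferons, and 45 of them were followed here in mouse colon tumours with and without the tumour suppressor APC. The 45 were named as a list of symbols and grouped by role; each was read from the array's probe sets annotated to that symbol alone, and where a gene had several, from the one with the highest mean over the 12 tumours. A probe set of its own was found for 43 of the 45, out of 18193 genes on the array. All 43 passed the filter on level used for testing, a mean log2 value of at least 5.55, which 11070 genes of the array passed. Isg15 lay only on a probe set shared with another symbol, and Ifi44 was not analysed here.

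The tumours came from MC38, a mouse colon carcinoma line, injected into the cecum of C57BL/6 mice, and each line carried an inducible hairpin RNA against Tdo2 (ishTDO2), the enzyme that starts the breakdown of tryptophan to kynurenine. Doxycycline (Dox) in the drinking water switches that hairpin on. The 4 groups, of 3 tumours each, were APC-KO with Dox, APC-KO with no Dox, APC-WT with Dox and APC-WT with no Dox, so all 12 tumours carried the hairpin construct. No tumours with Dox but lacking the hairpin were analysed here, so effects of the drug and of the knockdown cannot be told apart. The labels do not say which part of Apc was deleted, whether each genotype was 1 clone, how old the mice were or whether each tumour had a mouse of its own. The p-values therefore measure the spread between these 12 samples, which may in part be technical.

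Type I interferons signal through a receptor whose kinases activate the complex ISGF3, of which STAT2 and IRF9 are subunits and which binds the interferon-stimulated response element (ISRE) in gene promoters. Interferon gamma signals through its own receptor to gamma-activated sites (GAS) in promoters and induces IRF1, among other genes. The products sense foreign nucleic acid, block viral replication, attack vacuoles with pathogens and call in lymphocytes; in tumours this programme is known from both malignant cells and the leukocytes around them.

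All values are the authors' log2 expression values, and differences are log2 differences given ± their standard error, from limma; "passed" means an adjusted p under 0.05 in that fit over all 11070 genes. Array medians were even, at 5.54 to 5.58, and arrays of a group correlated at 0.995 to 0.998. Of 4 Apc probe sets, 2 separated the genotypes in both Dox states, and the remaining 2 did so only with Dox. The brighter of the first 2 had 6.74 to 6.83 in APC-KO Dox and 6.75 to 7.02 in APC-KO no Dox tumours. In APC-WT tumours it had 7.70 to 7.78 with Dox and 7.57 to 7.84 without Dox. The other had 5.78 to 5.86 in APC-KO Dox and 5.84 to 6.13 in APC-KO no Dox, against 6.28 to 6.34 in APC-WT Dox and 6.25 to 6.63 in APC-WT no Dox tumours. The 3 Tdo2 probe sets lay under the level of 5.55 on all arrays, so the knockdown could not be checked. Of the markers of colon epithelium, 4 of 7 (Cdh17, Vil1, Krt20 and Krt18) lay under that level on all 12 arrays, while 10 macrophage and monocyte markers gave strong signal, and each sample mixes RNA of malignant and host cells. In such bulk samples, fewer cells of a type and less RNA per cell cannot be told apart.

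The promoters of several members carry the letters of these elements close to the start of transcription. Of the 45 members, 35 had promoter windows in the RefSeq table for GRCm38.p6, and the 250 bases before each start were searched on both strands for the core of the ISRE (GAAA, any 2 bases and GAAA again) and for the GAS (TTC, any 3 bases and GAA). The letters of the 2 motifs can overlap, as they do in Bst2. The ISRE core was found in 16 of 35 members (45.7%), against 3.46% of 27025 genes of the table. The GAS letters were found in 7 of 35 members (20.0%), against 8.13% of all genes. The stretches below show the letters in members from several roles, with either motif or both. In APC-KO against APC-WT, Stat2, Oas1a and Bst2 passed as lower without Dox, Gbp2 with Dox, Irf1 and Igtp in both Dox states and Ifit1 in neither; the interaction of Dox and genotype passed for none of these 7 genes. Capitals mark the matched letters, matches that overlap are run together, and each stretch is read 5′ to 3′ on the strand of its gene.
Stat2: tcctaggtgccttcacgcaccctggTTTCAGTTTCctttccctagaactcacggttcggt
Oas1a: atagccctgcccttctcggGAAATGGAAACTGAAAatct
Bst2: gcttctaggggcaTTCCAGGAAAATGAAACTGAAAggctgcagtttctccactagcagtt
Irf1: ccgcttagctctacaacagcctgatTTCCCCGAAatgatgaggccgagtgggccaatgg
Igtp: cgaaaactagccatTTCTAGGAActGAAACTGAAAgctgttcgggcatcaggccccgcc
Gbp2: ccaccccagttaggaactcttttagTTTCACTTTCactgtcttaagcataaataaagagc
Ifit1: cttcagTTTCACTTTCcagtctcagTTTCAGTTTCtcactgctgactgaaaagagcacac
The stretch of Stat2 lies at chr10:128270251-128270310 (plus strand), that of Oas1a at chr5:120907526-120907564 (minus strand) and that of Bst2 at chr8:71537562-71537621 (minus strand). Those of Irf1 and Igtp lie at chr11:53769899-53769957 (plus strand) and chr11:58199497-58199555 (plus strand), and those of Gbp2 and Ifit1 at chr3:142620579-142620638 (plus strand) and chr19:34640779-34640838 (plus strand). Irf1 had a GAS match and no ISRE core, Igtp and Bst2 had both in 1 stretch, and Oas1a had a GAS match outside the stretch shown. All 5 of the GTPase genes with a window (Gbp2, Gbp3, Gbp7, Igtp and Irgm1) held the ISRE core. By genotype calls, the ISRE core was in 6 of 20 members with a window that passed without Dox only. It was in 1 of 2 that passed with Dox only, 2 of 3 that passed in both and 6 of 8 that passed in neither. The stretches shown are examples, and a link between motif and call was not tested. A match describes the letters of the window; binding of a factor was not measured.

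The members had their highest level in APC-WT tumours without Dox, every one of them by its group mean, where 28.2% of all genes tested had their highest mean in that group. In 25 of the 43, all 3 APC-WT no Dox tumours lay above the other 9 tumours, a pattern that 3.46% of all genes tested showed. The lowest group mean was in APC-KO Dox tumours for 20 members, in APC-KO no Dox tumours for 18 and in APC-WT Dox tumours for 5. The mean log2 value over the 43 members was 9.09 ± 0.25 in APC-KO Dox, 9.14 ± 0.30 in APC-KO no Dox, 9.23 ± 0.16 in APC-WT Dox and 9.69 ± 0.15 in APC-WT no Dox tumours (SD, n = 3 each). The 3 lower groups overlapped one another, and the APC-WT no Dox tumours stood apart from them, at 9.56 to 9.85 against at most 9.39 elsewhere.

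**Figure D1:**
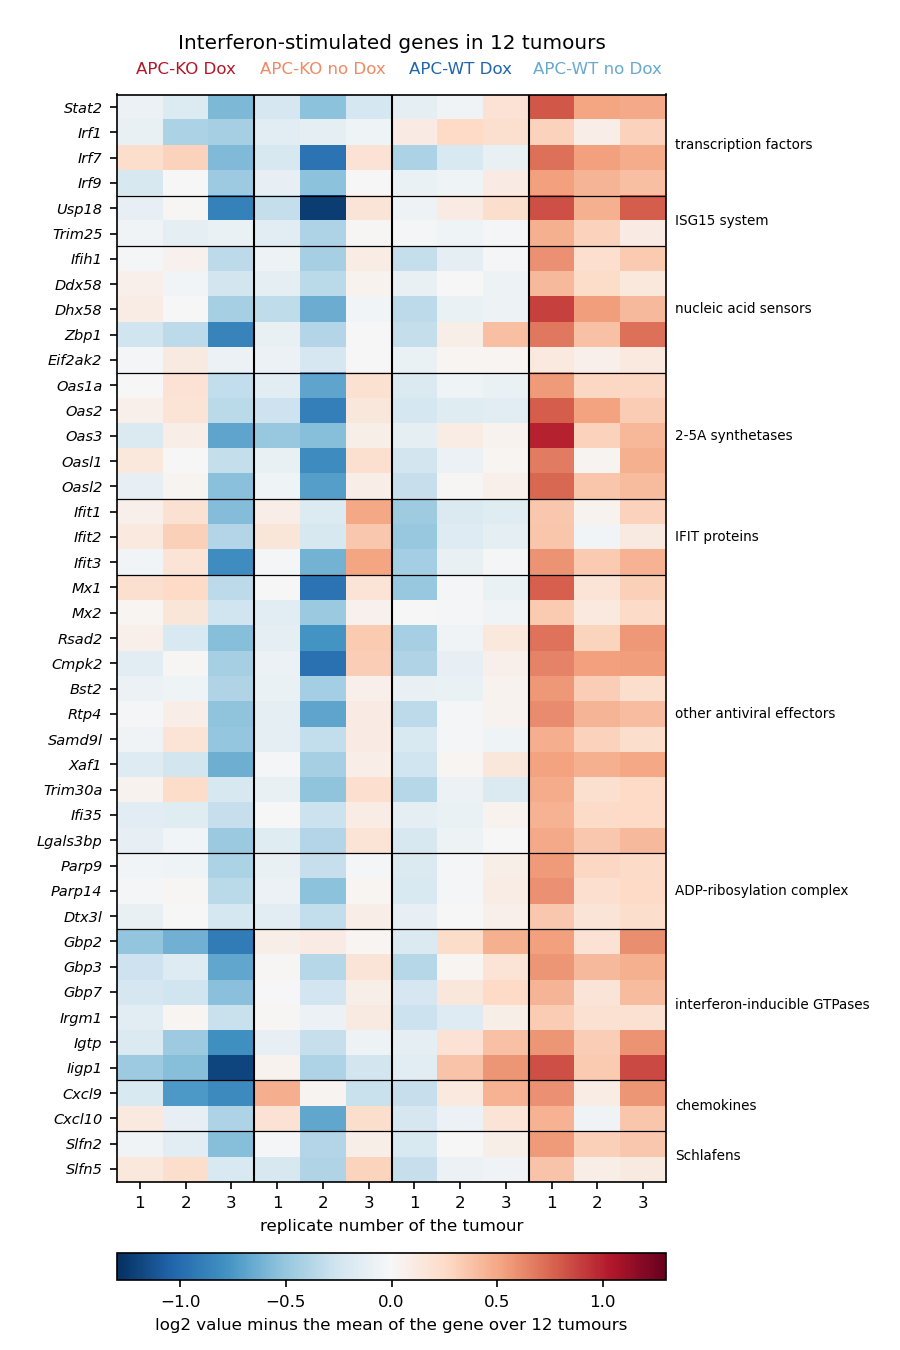
Log2 value of each of 43 interferon-stimulated genes (rows, grouped by role) in each of 12 tumours (columns, 3 per group), minus the mean of that gene over the 12 tumours; red is above and blue below the mean. The 3 APC-WT no Dox tumours are red in nearly all rows, and APC-KO Dox replicate 3 and APC-KO no Dox replicate 2 are the bluest columns.

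Within groups, single tumours stood apart over almost the whole list. APC-KO Dox replicate 3 was the lowest of its group for 42 of 43 members, with a median deviation of -0.27 from the group mean. APC-KO no Dox replicate 2 was the lowest of its group for 40 (median deviation -0.29) and replicate 3 the highest for 39 (0.23). APC-WT Dox replicate 1 was the lowest for 41 (-0.16), and APC-WT no Dox replicate 1 was the highest for 37 (0.15). The effect of leaving these tumours out is given with each comparison.

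The first comparison asks how APC-deleted tumours differed from APC-intact ones when the hairpin was not induced. Without Dox, 32 of the 43 members (74.4%) fell in APC-KO tumours relative to APC-WT and none rose. Over all genes tested, 24.9% passed in this comparison, 11.1% as lower and 13.8% as higher. At an unadjusted p under 0.05, 37 members were lower and none higher, against 37.2% of all genes in either direction, 16.8% lower and 20.4% higher. The other 11 members also had differences below 0, and the median over members was -0.53, from -1.16 for Usp18 to -0.05 for Ifit2. In 34 members all 3 APC-KO tumours lay below all 3 APC-WT tumours, which 16.4% of all genes tested did, while 20.8% had the opposite order. The factors of interferon signalling, the RNA sensors, the oligoadenylate synthetases and the ADP-ribosylation complex were lower almost without exception, whereas no member of the IFIT family and neither of the chemokines passed.

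The 4 transcription factors all fell. Stat2, a subunit of ISGF3, had 7.07, 6.97 and 6.57 in APC-KO Dox, 6.93, 6.62 and 6.92 in APC-KO no Dox, 7.02, 7.10 and 7.34 in APC-WT Dox and 7.96, 7.67 and 7.64 in APC-WT no Dox tumours. Irf9, the subunit of ISGF3 that contacts DNA, had 8.30, 8.53 and 8.04 in APC-KO Dox, 8.41, 7.98 and 8.53 in APC-KO no Dox, 8.43, 8.46 and 8.62 in APC-WT Dox and 9.05, 8.96 and 8.91 in APC-WT no Dox tumours. Irf7, which drives the interferon genes themselves in later rounds of the response, had 9.43, 9.50 and 8.64 in APC-KO Dox, 9.00, 8.25 and 9.40 in APC-KO no Dox, 8.79, 9.01 and 9.11 in APC-WT Dox and 9.92, 9.75 and 9.69 in APC-WT no Dox tumours. For these 3 factors the APC-WT no Dox tumours lay above all other tumours, and Irf7 spread over more than a log2 unit among APC-KO no Dox tumours. Irf1, the factor linked to interferon gamma, had 10.74, 10.42 and 10.40 in APC-KO Dox, 10.68, 10.71 and 10.77 in APC-KO no Dox, 10.94, 11.09 and 11.04 in APC-WT Dox and 11.13, 10.92 and 11.13 in APC-WT no Dox tumours. In Irf1 the split ran between genotypes, and both APC-WT groups lay above both APC-KO groups. Without Dox, Stat2 differed by -0.93 ± 0.14 (adjusted p 0.000349), 1.91-fold lower in APC-KO. Irf9 differed by -0.67 ± 0.13 (0.00282), Irf7 by -0.90 ± 0.25 (0.0174) and Irf1 by -0.34 ± 0.08 (0.0102). The call of Irf7 ended when either APC-KO no Dox replicate 2 (adjusted p 0.0633) or the first APC-WT no Dox tumour was left out; those of the other 3 held with any 1 tumour left out.

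Usp18 and Trim25 belong to the ISG15 system or act beside it. Usp18, the protease that strips ISG15 from proteins and also brakes the interferon receptor, had 9.25, 9.36 and 8.48 in APC-KO Dox, 9.04, 8.12 and 9.52 in APC-KO no Dox, 9.28, 9.45 and 9.58 in APC-WT Dox and 10.19, 9.81 and 10.14 in APC-WT no Dox tumours. The 3 APC-WT no Dox tumours were the highest, and APC-KO no Dox replicate 2 was the lowest of all 12. Its difference of -1.16 ± 0.28 (adjusted p 0.00944) was the largest among the members. Trim25, a ubiquitin ligase that acts on RIG-I, had 10.07, 10.01 and 10.04 in APC-KO Dox, 9.97, 9.72 and 10.13 in APC-KO no Dox, 10.10, 10.07 and 10.10 in APC-WT Dox and 10.58, 10.42 and 10.23 in APC-WT no Dox tumours. Both Dox groups and APC-KO no Dox overlapped, and the difference between genotypes without Dox was -0.47 ± 0.09 (0.00306). Of the 3 probe sets of Trim25, the third went the other way, at 0.18 ± 0.10 with an adjusted p of 0.315 over all probe sets, and with the mean of its probe sets Trim25 did not pass (adjusted p 0.0573).

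Among the sensors of nucleic acid, 4 of 5 fell. Dhx58, which encodes LGP2, a regulator of the RNA sensors, had 7.94, 7.83 and 7.41 in APC-KO Dox, 7.51, 7.19 and 7.81 in APC-KO no Dox, 7.50, 7.76 and 7.78 in APC-WT Dox and 8.73, 8.39 and 8.27 in APC-WT no Dox tumours. Ifih1, which encodes the double-stranded RNA sensor MDA5, had 9.50, 9.58 and 9.19 in APC-KO Dox, 9.46, 9.09 and 9.63 in APC-KO no Dox, 9.22, 9.40 and 9.51 in APC-WT Dox and 10.13, 9.75 and 9.87 in APC-WT no Dox tumours. Ddx58, which encodes RIG-I, had 9.10, 9.00 and 8.79 in APC-KO Dox, 8.92, 8.68 and 9.08 in APC-KO no Dox, 8.94, 9.03 and 8.97 in APC-WT Dox and 9.45, 9.27 and 9.17 in APC-WT no Dox tumours. In all 3 genes the APC-WT no Dox tumours lay above the other 9. Zbp1, a sensor of left-handed nucleic acid that can start cell death, had 8.08, 7.99 and 7.47 in APC-KO Dox, 8.23, 7.95 and 8.33 in APC-KO no Dox, 8.02, 8.41 and 8.73 in APC-WT Dox and 9.02, 8.71 and 9.05 in APC-WT no Dox tumours. In Zbp1 the highest APC-WT Dox tumour reached the APC-WT no Dox range. The differences without Dox were -0.96 ± 0.17 for Dhx58 (adjusted p 0.00114), -0.76 ± 0.18 for Zbp1 (0.0081), -0.52 ± 0.14 for Ifih1 (0.0145) and -0.40 ± 0.10 for Ddx58 (0.0127). Eif2ak2, which encodes the kinase PKR, did not pass, at -0.21 ± 0.07 (adjusted p 0.0542) with values of 7.78 to 8.00 in APC-KO no Dox and 8.07 to 8.13 in APC-WT no Dox tumours; another of its 3 probe sets passed, at -0.40 ± 0.12 (0.0365 over all probe sets). Ifih1 and Ddx58 did not pass when APC-KO no Dox replicate 2 or the first APC-WT no Dox tumour was left out, with highest adjusted p of 0.0664 and 0.0578.

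All 5 genes of the oligoadenylate synthetase family fell; the enzymes among them make the small messenger that activates RNase L, and all 5 lie on chromosome 5. Oas1a had 10.06, 10.26 and 9.75 in APC-KO Dox, 9.93, 9.38 and 10.26 in APC-KO no Dox, 9.87, 10.00 and 9.97 in APC-WT Dox and 10.62, 10.33 and 10.33 in APC-WT no Dox tumours. Oas2 had 8.26, 8.38 and 7.84 in APC-KO Dox, 7.93, 7.30 and 8.35 in APC-KO no Dox, 7.96, 8.04 and 8.06 in APC-WT Dox and 8.98, 8.72 and 8.52 in APC-WT no Dox tumours. Oas3, the dimmest member of the list, had 5.66, 5.93 and 5.15 in APC-KO Dox, 5.35, 5.29 and 5.92 in APC-KO no Dox, 5.72, 5.94 and 5.89 in APC-WT Dox and 6.85, 6.15 and 6.28 in APC-WT no Dox tumours. In these 3 the APC-WT no Dox tumours lay above all others. Oasl1 had 8.35, 8.22 and 7.90 in APC-KO Dox, 8.11, 7.39 and 8.42 in APC-KO no Dox, 7.97, 8.14 and 8.24 in APC-WT Dox and 8.89, 8.25 and 8.67 in APC-WT no Dox tumours. Oasl2 had 9.32, 9.46 and 8.88 in APC-KO Dox, 9.37, 8.71 and 9.51 in APC-KO no Dox, 9.13, 9.45 and 9.49 in APC-WT Dox and 10.18, 9.79 and 9.84 in APC-WT no Dox tumours. Oasl1 overlapped between the genotypes and Oasl2 did not. The differences without Dox were -0.90 ± 0.22 for Oas3 (adjusted p 0.00816), -0.88 ± 0.21 for Oas2 (0.00724), -0.74 ± 0.19 for Oasl2 (0.0129), -0.63 ± 0.22 for Oasl1 (0.0464) and -0.57 ± 0.17 for Oas1a (0.0289). Oasl1 passed in only 3 of the 12 fits with 1 tumour left out, leaving out APC-WT no Dox replicate 1 ended the calls of Oas1a (adjusted p 0.108) and Oasl2 (0.0581), and Oas1a did not pass without the first or the second APC-KO no Dox tumour either.

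The IFIT genes, which lie on chromosome 19 and encode proteins that bind foreign RNA ends, did not pass. Ifit2, the brightest of them, had 10.16, 10.35 and 9.66 in APC-KO Dox, 10.20, 9.83 and 10.39 in APC-KO no Dox, 9.55, 9.87 and 9.92 in APC-WT Dox and 10.40, 10.00 and 10.15 in APC-WT no Dox tumours. APC-KO no Dox and APC-WT no Dox tumours overlapped, and the difference was -0.05 ± 0.17 with a 95% interval of -0.42 to 0.33. Ifit1 had group means of 9.19 ± 0.41 in APC-KO Dox, 9.43 ± 0.35 in APC-KO no Dox, 9.02 ± 0.17 in APC-WT Dox and 9.52 ± 0.17 in APC-WT no Dox tumours (SD, n = 3 each), a difference of -0.09 ± 0.19 with an interval of -0.50 to 0.31. Ifit3 had 9.39 ± 0.52 in APC-KO Dox, 9.57 ± 0.56 in APC-KO no Dox, 9.42 ± 0.22 in APC-WT Dox and 10.07 ± 0.12 in APC-WT no Dox tumours (SD, n = 3 each), a difference of -0.50 ± 0.26 with an interval of -1.05 to 0.05. These intervals include a fall as large as the median of the members for Ifit3 and not for Ifit1 and Ifit2.

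Of the 11 other antiviral effectors, 9 fell. Cmpk2, a mitochondrial nucleotide kinase, had 7.84, 8.00 and 7.56 in APC-KO Dox, 7.91, 7.02 and 8.30 in APC-KO no Dox, 7.60, 7.88 and 8.05 in APC-WT Dox and 8.63, 8.52 and 8.53 in APC-WT no Dox tumours. Rsad2, its neighbour on chromosome 12, which encodes viperin, had 10.47, 10.20 and 9.85 in APC-KO Dox, 10.28, 9.62 and 10.74 in APC-KO no Dox, 9.97, 10.36 and 10.54 in APC-WT Dox and 11.10, 10.70 and 10.97 in APC-WT no Dox tumours. The tumour APC-KO no Dox replicate 2 was the lowest of all 12 in both genes. Rtp4, a receptor transporter protein, had 9.96, 10.07 and 9.45 in APC-KO Dox, 9.86, 9.29 and 10.08 in APC-KO no Dox, 9.64, 9.96 and 10.03 in APC-WT Dox and 10.59, 10.42 and 10.38 in APC-WT no Dox tumours. Xaf1, a partner of the apoptosis inhibitor XIAP, had 9.68, 9.62 and 9.22 in APC-KO Dox, 9.82, 9.42 and 9.94 in APC-KO no Dox, 9.60, 9.88 and 10.00 in APC-WT Dox and 10.37, 10.31 and 10.36 in APC-WT no Dox tumours. The APC-WT no Dox tumours lay above all others in Cmpk2, Rtp4 and Xaf1, and Rsad2 overlapped between genotypes. Lgals3bp, a secreted glycoprotein that binds galectins, had 10.26, 10.33 and 9.89 in APC-KO Dox, 10.21, 9.99 and 10.55 in APC-KO no Dox, 10.16, 10.30 and 10.36 in APC-WT Dox and 10.87, 10.72 and 10.79 in APC-WT no Dox tumours. Bst2, which encodes tetherin, the anchor that holds budding virus at the cell surface, had 10.87, 10.89 and 10.56 in APC-KO Dox, 10.86, 10.50 and 11.01 in APC-KO no Dox, 10.85, 10.86 and 11.00 in APC-WT Dox and 11.51, 11.27 and 11.18 in APC-WT no Dox tumours. These also had their 3 highest values in APC-WT no Dox tumours.

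Samd9l, a restriction factor for poxviruses, had 9.91, 10.14 and 9.46 in APC-KO Dox, 9.84, 9.64 and 10.07 in APC-KO no Dox, 9.77, 9.94 and 9.90 in APC-WT Dox and 10.43, 10.26 and 10.19 in APC-WT no Dox tumours. Mx2, a dynamin-like GTPase, had 6.72, 6.85 and 6.43 in APC-KO Dox, 6.55, 6.21 and 6.75 in APC-KO no Dox, 6.69, 6.67 and 6.64 in APC-WT Dox and 7.04, 6.82 and 6.95 in APC-WT no Dox tumours. Ifi35, a leucine zipper protein, had 10.52, 10.51 and 10.37 in APC-KO Dox, 10.67, 10.39 and 10.76 in APC-KO no Dox, 10.54, 10.59 and 10.71 in APC-WT Dox and 11.12, 10.92 and 10.93 in APC-WT no Dox tumours. In Samd9l and Ifi35 the APC-WT no Dox tumours were again the highest 3, while Mx2 overlapped with the APC-KO Dox tumours. Across the 9 genes the differences without Dox ran from -0.82 ± 0.23 for Cmpk2 (adjusted p 0.0213) to -0.38 ± 0.09 for Ifi35 (0.00721), with -0.72 ± 0.18 for Rtp4 (0.012), -0.62 ± 0.14 for Xaf1 (0.00609), -0.54 ± 0.13 for Lgals3bp (0.00814) and -0.53 ± 0.12 for Bst2 (0.00687). Rsad2 was at -0.71 ± 0.23 (0.0396), Samd9l at -0.45 ± 0.14 (0.0338) and Mx2 at -0.43 ± 0.13 (0.0266). The last 3 each lost their call in 4 or 5 of the 12 fits with 1 tumour left out, with the highest adjusted p, 0.158, 0.127 and 0.110, when APC-KO no Dox replicate 2 was left out, and the call of Cmpk2 ended when APC-WT no Dox replicate 1 was (0.0633). Mx1, the relative of Mx2 known for blocking influenza virus, was at -0.69 ± 0.26 (0.0668) and Trim30a, a regulator of Toll-like receptor signalling, at -0.45 ± 0.16 (0.0513); neither passed.

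The 3 genes of the ADP-ribosylation group fell; Parp9 and Dtx3l encode a pair of proteins that act as a complex, and Parp14 encodes a related ADP-ribosyltransferase. Parp9 had 9.30, 9.28 and 8.93 in APC-KO Dox, 9.24, 9.03 and 9.32 in APC-KO no Dox, 9.14, 9.31 and 9.42 in APC-WT Dox and 9.89, 9.60 and 9.58 in APC-WT no Dox tumours. Parp14 had 8.93, 8.96 and 8.60 in APC-KO Dox, 8.87, 8.42 and 8.98 in APC-KO no Dox, 8.75, 8.94 and 9.05 in APC-WT Dox and 9.54, 9.16 and 9.21 in APC-WT no Dox tumours. Dtx3l had 8.88, 8.98 and 8.75 in APC-KO Dox, 8.84, 8.66 and 9.06 in APC-KO no Dox, 8.87, 8.98 and 9.04 in APC-WT Dox and 9.33, 9.15 and 9.20 in APC-WT no Dox tumours. All 3 had their highest 3 values in APC-WT no Dox tumours. The differences without Dox were -0.55 ± 0.15 for Parp14 (adjusted p 0.0139), -0.50 ± 0.11 for Parp9 (0.00669) and -0.37 ± 0.09 for Dtx3l (0.0116). Leaving out APC-WT no Dox replicate 1 (0.0640) or the second APC-KO no Dox tumour ended the call of Parp14.

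The interferon-inducible GTPases, which assemble on the vacuoles of pathogens and answer strongly to interferon gamma, behaved in more than 1 way. Iigp1, an effector of the immunity-related GTPases, had 9.64, 9.56 and 8.92 in APC-KO Dox, 10.16, 9.72 and 9.87 in APC-KO no Dox, 9.96, 10.48 and 10.68 in APC-WT Dox and 10.95, 10.46 and 10.97 in APC-WT no Dox tumours. Igtp, a regulator of that family, had 10.43, 10.15 and 9.83 in APC-KO Dox, 10.52, 10.32 and 10.56 in APC-KO no Dox, 10.50, 10.81 and 11.01 in APC-WT Dox and 11.20, 10.94 and 11.21 in APC-WT no Dox tumours. Gbp2, a guanylate-binding protein, had 10.49, 10.37 and 10.09 in APC-KO Dox, 11.07, 11.10 and 11.02 in APC-KO no Dox, 10.80, 11.24 and 11.46 in APC-WT Dox and 11.53, 11.19 and 11.60 in APC-WT no Dox tumours. In Iigp1 and Igtp the 2 APC-KO groups lay mostly below the 2 APC-WT groups, and in Gbp2 the 3 APC-KO Dox tumours lay below all the others. Gbp3, which lies on chromosome 3 with Gbp2 and Gbp7, had 10.07, 10.18 and 9.67 in APC-KO Dox, 10.36, 9.97 and 10.50 in APC-KO no Dox, 9.97, 10.37 and 10.52 in APC-WT Dox and 10.92, 10.76 and 10.81 in APC-WT no Dox tumours. Gbp7 had 10.77, 10.74 and 10.45 in APC-KO Dox, 10.99, 10.75 and 11.07 in APC-KO no Dox, 10.77, 11.14 and 11.26 in APC-WT Dox and 11.44, 11.16 and 11.40 in APC-WT no Dox tumours. Irgm1, a regulator of autophagy and of the other GTPases, had 9.62, 9.80 and 9.49 in APC-KO Dox, 9.79, 9.69 and 9.89 in APC-KO no Dox, 9.49, 9.60 and 9.84 in APC-WT Dox and 10.10, 9.97 and 9.96 in APC-WT no Dox tumours. Gbp3 and Irgm1 had their 3 highest values in APC-WT no Dox tumours, like most other members, and Gbp7 followed Igtp. Without Dox, Iigp1 differed by -0.88 ± 0.21 (adjusted p 0.00829), Igtp by -0.65 ± 0.14 (0.00522), Gbp3 by -0.55 ± 0.16 (0.0204) and Gbp7 by -0.40 ± 0.12 (0.0313). Gbp2 was at -0.37 ± 0.15 (0.0767) and Irgm1 at -0.22 ± 0.09 (0.102), both without a call although their groups did not overlap. Leaving out APC-KO no Dox replicate 2 gave Gbp3 an adjusted p of 0.0854 and Gbp7 one of 0.119. Gbp3 also did not pass without the first APC-WT no Dox tumour, and Gbp7 passed in 8 of the 12 fits with 1 tumour left out.

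Neither chemokine passed without Dox; both attract CXCR3-bearing T cells and NK cells. Cxcl9, induced mainly by interferon gamma, had 9.49, 8.94 and 8.87 in APC-KO Dox, 10.17, 9.73 and 9.40 in APC-KO no Dox, 9.39, 9.82 and 10.14 in APC-WT Dox and 10.28, 9.79 and 10.27 in APC-WT no Dox tumours. Cxcl10, induced by both kinds of interferon, had 10.94, 10.71 and 10.42 in APC-KO Dox, 11.00, 10.15 and 11.05 in APC-KO no Dox, 10.60, 10.74 and 10.99 in APC-WT Dox and 11.27, 10.77 and 11.18 in APC-WT no Dox tumours. The genotypes overlapped in both genes, at -0.35 ± 0.22 for Cxcl9 and -0.34 ± 0.21 for Cxcl10 (adjusted p 0.273 and 0.259). The second, dimmer probe set of Cxcl9 did pass, at -0.81 ± 0.21 (0.0188 over all probe sets). Slfn2, a Schlafen gene known for keeping T cells quiescent, had 9.53, 9.44 and 9.02 in APC-KO Dox, 9.55, 9.20 and 9.65 in APC-KO no Dox, 9.38, 9.57 and 9.65 in APC-WT Dox and 10.13, 9.89 and 9.93 in APC-WT no Dox tumours and differed by -0.51 ± 0.13 (0.0135). Its 3 APC-WT no Dox values were the highest, and the call ended when APC-WT no Dox replicate 1 (0.0583) or the second APC-KO no Dox tumour was left out. Slfn5, a related gene, did not pass, at -0.30 ± 0.16.

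The count of 32 rested most on 2 tumours. Leaving out APC-WT no Dox replicate 1 gave 18 and leaving out APC-KO no Dox replicate 2 gave 20, while 37 members passed when APC-KO no Dox replicate 3 was left out. The median over members stayed between -0.66 and -0.38 when any 1 tumour was left out, and 17 members passed under every alternative tried. The signal for 18S ribosomal RNA was higher in the APC-KO no Dox tumours, at 9.80 to 10.2 against 9.46 to 9.59 in the APC-WT no Dox tumours, and the Gapdh difference between 3′ and 5′ probe sets was -0.18 to -0.15 against -0.12 to -0.09; their part in the result was not tested.

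**Figure D2:**
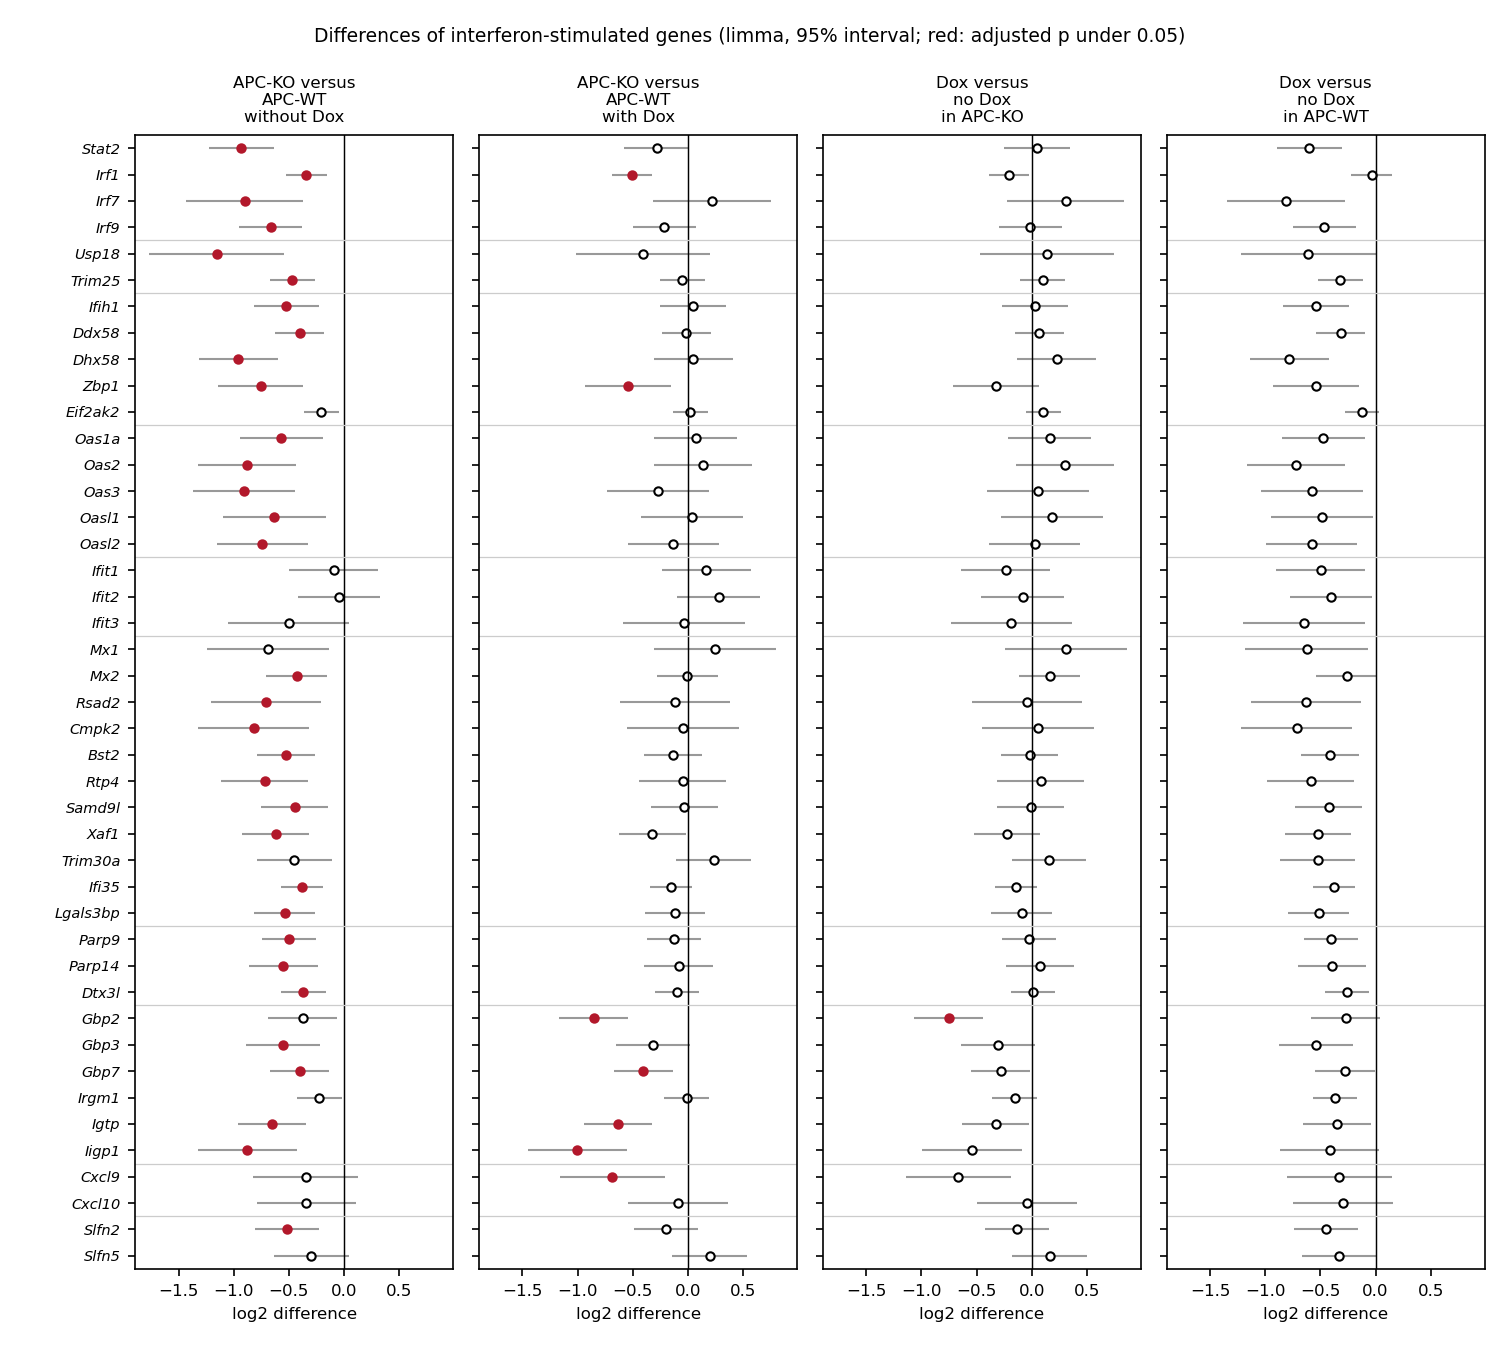
Log2 difference of each of 43 interferon-stimulated genes (rows) in 4 comparisons (panels), with its 95% interval from the limma fit; filled red points passed at an adjusted p under 0.05 and open points did not. APC-KO versus APC-WT without Dox holds 32 red points, the same comparison with Dox 7, Dox in APC-KO 1 and Dox in APC-WT none, although all 43 points of that last panel lie below 0.

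The second comparison asks how the genotypes differed once Dox had been given. With Dox, 7 of the 43 members (16.3%) fell in APC-KO tumours relative to APC-WT and none rose; over all genes tested, 19.9% passed, 7.99% as lower and 11.9% as higher. At an unadjusted p under 0.05, 8 members were lower and none higher, against 32.8% of all genes in either direction, 13.5% lower and 19.3% higher. Counted in either direction, members thus passed no more often than all genes tested (16.3% against 19.9%). As lower they passed more often (16.3% against 7.99%). The 7 were Irf1, 4 of the 6 GTPases (Gbp2, Gbp7, Igtp and Iigp1), the sensor Zbp1 and the chemokine Cxcl9. The median over members was -0.09, with 31 differences below 0 and 12 above. In 6 members the groups did not overlap with APC-KO lower, a pattern of 18% of all genes tested, with the opposite order in 23.4%. None of the oligoadenylate synthetases, the IFIT genes, the 11 other antiviral effectors or the ADP-ribosylation group passed.

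Iigp1 showed the largest difference, -1.001 ± 0.21 (adjusted p 0.00461), 2-fold lower in APC-KO Dox tumours, all 3 of which lay below the APC-WT Dox tumours. Gbp2 was next at -0.85 ± 0.15 (0.00127), or 1.81-fold lower, also with no overlap. The brightest Gbp2 probe set is of a kind that can bind related transcripts, and the second one gave -0.90 ± 0.16 (0.00163 over all probe sets). Irf1 differed by -0.51 ± 0.08 (0.00108) and Igtp by -0.63 ± 0.14 (0.00725), each without overlap. These 4 passed under every alternative tried. Gbp7 at -0.40 ± 0.12 (0.0364), Cxcl9 at -0.69 ± 0.22 (0.0428) and Zbp1 at -0.54 ± 0.18 (0.0491) were less stable. Each of these 3 lost its call without APC-WT Dox replicate 2 or 3 or without APC-KO Dox replicate 2 or 3, with adjusted p of up to 0.163, 0.184 and 0.217 (each without APC-WT Dox replicate 3), so the count was 4 without any 1 of those tumours. The Gapdh difference between 3′ and 5′ probe sets was -0.16 to -0.11 in APC-KO Dox against -0.19 to -0.16 in APC-WT Dox tumours, and that of Actb was 0.19 to 0.28 against 0.17 to 0.19, neither with overlap; their part in the result was not tested.

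The members that carried the comparison without Dox gave wide intervals around smaller values with Dox. Stat2 was at -0.28 ± 0.14 (95% interval -0.58 to 0.01), Usp18 at -0.41 ± 0.28 (-1.02 to 0.20), Dhx58 at 0.05 ± 0.17 (-0.31 to 0.41) and Oas2 at 0.14 ± 0.21 (-0.31 to 0.58). The highest value was that of Ifit2, 0.28 ± 0.17 (-0.10 to 0.65). By calls, 27 members passed without Dox and not with it, 2 with Dox and not without it (Gbp2 and Cxcl9), 5 in both (Irf1, Zbp1, Gbp7, Igtp and Iigp1) and 9 in neither. The dimmer probe set of Cxcl9 did pass without Dox, so the place of Cxcl9 in this split depends on the probe set. Whether the genotype difference itself differed between the Dox states is the interaction below.

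**Figure D3:**
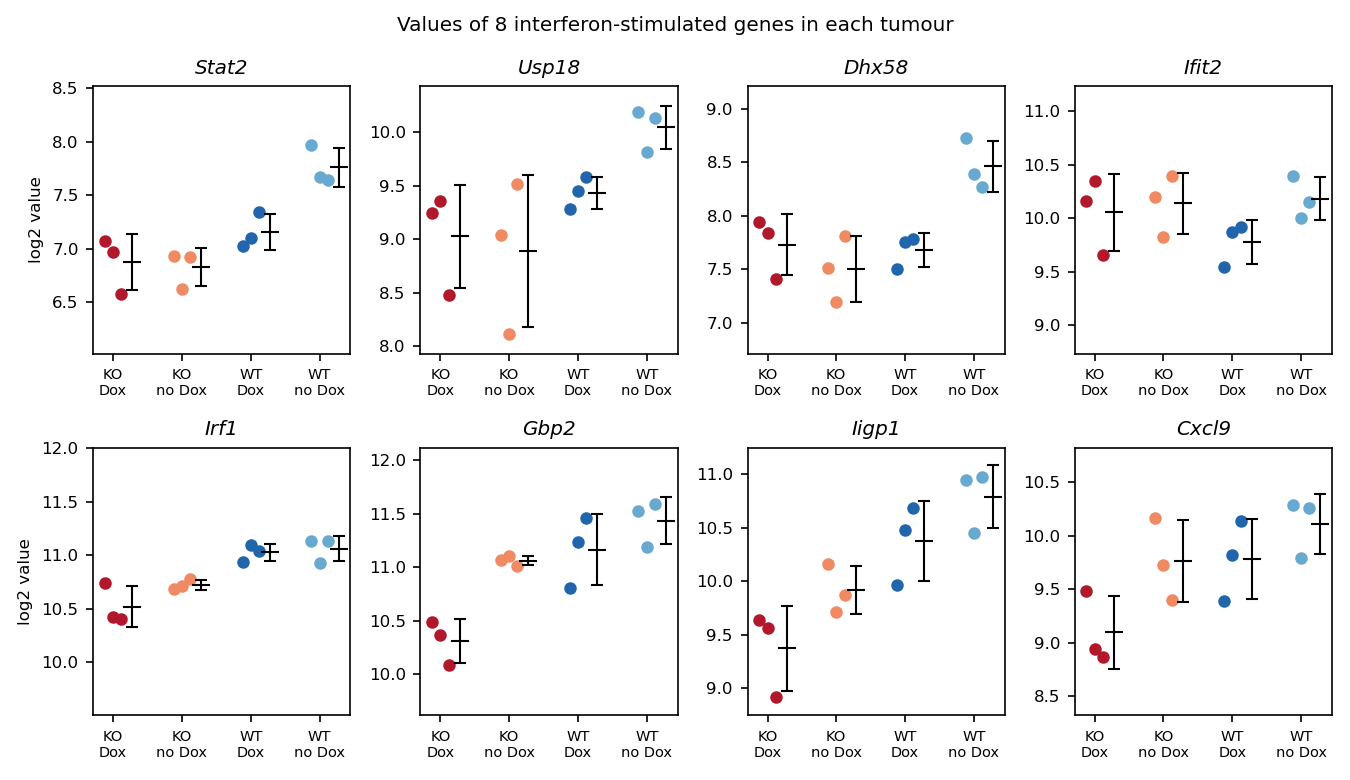
Log2 value (vertical axis, spanning 2.5 log2 units in every panel) of 8 genes in each tumour by group; points are tumours and the bar is the mean with its SD (n = 3). In Stat2, Usp18 and Dhx58 only the APC-WT no Dox tumours stand above the rest; in Irf1 the genotypes separate in both Dox states; in Gbp2 and Iigp1 the APC-KO Dox tumours are the lowest; Ifit2 is lowest in APC-WT Dox and overlaps between the genotypes without Dox, and Cxcl9 is lowest in APC-KO Dox with some overlap.

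The third comparison asks what Dox changed in APC-KO tumours. Dox lowered 1 member, Gbp2, and raised none, where 0.542% of all genes tested passed, 0.506% as lower and 0.0361% as higher. At an unadjusted p under 0.05, 6 members were lower and none higher, against 13.1% of all genes in either direction, 7.6% lower and 5.47% higher. Gbp2 was at -0.75 ± 0.15 (adjusted p 0.0375), 1.68-fold lower with Dox, and its 3 APC-KO Dox tumours lay below the 3 APC-KO no Dox tumours. Its second probe set gave -0.77 ± 0.16 (0.0569 over all probe sets). The call did not hold in 7 of the 12 fits with 1 tumour left out, the highest adjusted p being 0.182 without APC-KO Dox replicate 3, nor with the mean of its probe sets (0.062) or with eBayes without a trend (0.0794). Next by p were Cxcl9 at -0.67 ± 0.22 (0.211), Iigp1 at -0.54 ± 0.21 (0.284), Irf1 at -0.20 ± 0.08 (0.322) and Igtp at -0.33 ± 0.14 (0.354), none of which passed. Over the 43 members 22 differences lay below 0 and 21 above, with a median of -0.01, and 2 members did not overlap (Gbp2 and Iigp1, both lower), against 9.67% of all genes tested lower and 8.08% higher. Without APC-KO Dox replicate 3 the median was 0.12 and without APC-KO no Dox replicate 2 it was -0.18. The 18S signal was 9.34 to 9.61 in APC-KO Dox against 9.80 to 10.2 in APC-KO no Dox tumours, without overlap; its part in the result was not tested.

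By role, the GTPases had a median of -0.32 in this comparison, with 6 of 6 below 0, and the 2 chemokines were at -0.67 ± 0.22 and -0.04 ± 0.21. The oligoadenylate synthetases had a median of 0.16 with 5 of 5 above 0, from 0.03 ± 0.19 for Oasl2 to 0.30 ± 0.21 for Oas2. That direction rested on APC-KO no Dox replicate 2, since without it the median was -0.07 with only Oas2 above 0. The GTPases stayed at 6 of 6 below 0 without any 1 of the 6 APC-KO tumours. Stat2 at 0.05 ± 0.14, Usp18 at 0.14 ± 0.28 and Irf7 at 0.31 ± 0.25 had 95% intervals of -0.25 to 0.34, -0.47 to 0.75 and -0.23 to 0.84, which leave room for changes in either direction.

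The fourth comparison asks what Dox changed in APC-WT tumours. All 43 members had lower means with Dox, by a median of -0.47 (all genes tested: -0.008), but none passed; 3 of all 11070 genes did (0.0271%), with 0.0181% lower and 0.00903% higher. At an unadjusted p under 0.05, 35 of the 43 (81.4%) were lower and none higher, against 15.5% of all genes in either direction, 9.03% lower and 6.47% higher. In 35 members, also, the 3 APC-WT Dox tumours lay below the 3 APC-WT no Dox tumours, against 10.3% of all genes tested, with the opposite order in 11%. The smallest adjusted p was 0.105, shared by Dhx58 at -0.78 ± 0.17 and Stat2 at -0.60 ± 0.14. Ifi35 was at -0.38 ± 0.09 (0.111), and Lgals3bp at -0.51 ± 0.13 and Irgm1 at -0.37 ± 0.09 shared an adjusted p of 0.123. Irf7 had the lowest difference, -0.81 ± 0.25 (95% interval -1.35 to -0.28).

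The factor Irf1 was the member nearest to 0 with Dox in APC-WT tumours, at -0.04 ± 0.08 with an interval of -0.22 to 0.14. The oligoadenylate synthetases had a median of -0.57 and the GTPases of -0.36. With array quality weights, which give less weight to arrays that fit poorly, 13 members passed as lower, with only the 2 groups compared in the fit 4 passed, and without APC-WT no Dox replicate 3 also 4. No gene of the whole array passed when replicate 1 or 2 of either APC-WT group was left out. This comparison and the first share the 3 APC-WT no Dox tumours, so a high or low value in them moves both in the same direction. The Gapdh difference between 3′ and 5′ probe sets was -0.19 to -0.16 in APC-WT Dox against -0.12 to -0.09 in APC-WT no Dox tumours; its part in the result was not tested.

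The interaction asks whether the Dox difference was the same in both genotypes. None of the 43 members passed, and none of the 11070 genes did (0%). At an unadjusted p under 0.05, 22 members were higher (a less negative Dox difference in APC-KO than in APC-WT) and 1, Gbp2, was lower, which is 53.5% of the members against 11.9% of all genes tested, 6.24% higher and 5.61% lower. The median over members was 0.42, with 38 of 43 above 0. The 5 members of smallest p were Dhx58 at 1.01 ± 0.24, Oas2 at 1.02 ± 0.29, Stat2 at 0.65 ± 0.20, Irf7 at 1.12 ± 0.35 and Trim25 at 0.42 ± 0.13, with adjusted p of 0.191, 0.252, 0.254, 0.264 and 0.27. Gbp2 was at -0.48 ± 0.21, Cxcl9 at -0.34 ± 0.31, Irf1 at -0.17 ± 0.12 and Iigp1 at -0.13 ± 0.30. The probe sets of Cxcl9 differed in direction here, as did those of Gbp7. The genotype difference passed in far more members without Dox than with it, while a difference between the Dox states was not detected for any single gene at this number of tumours. The median stayed between 0.29 and 0.54 when any 1 tumour was left out.

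The members varied more between tumours of a group than other genes did. The median pooled SD within groups was 0.23 for the 43 members and 0.096 for all genes tested, and 42 of 43 lay above that second value. Usp18 spread most, with a pooled SD of 0.45, followed by Ifit3 (0.40), Mx1 (0.40) and Irf7 (0.39), and Irf1 (0.12) and Eif2ak2 (0.084) spread least. The spread was larger in APC-KO tumours, with median SDs over members of 0.26 in APC-KO Dox and 0.28 in APC-KO no Dox, against 0.15 in APC-WT Dox and 0.16 in APC-WT no Dox tumours; over all genes tested these were 0.080, 0.089, 0.067 and 0.096.

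The deviations from the group means also ran together. Over the 12 tumours, the 903 pairs of members had a median correlation of 0.85 in these deviations, with 99.8% of pairs above 0, and pairs of a member with another tested gene had a median of 0.0017. The points share arrays and normalization, and 1 low tumour in a group moves all members at once. Cxcl9 followed the other members least, with a median correlation of 0.30, then Irf1 and Gbp2 with 0.45 each, whereas Ifih1 and Rtp4 followed them most closely, at 0.92 and 0.91. These 3 looser genes, Cxcl9, Irf1 and Gbp2, are among the 7 that passed between genotypes with Dox.

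**Figure D4:**
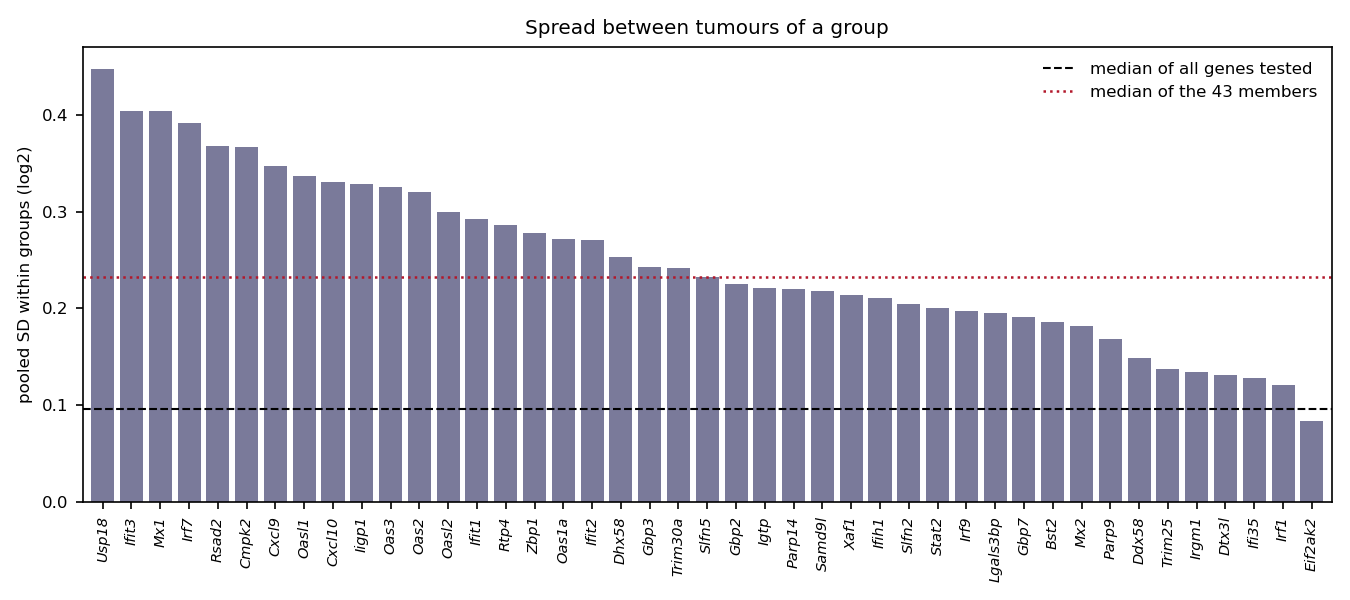
Pooled SD within the 4 groups (log2, vertical axis) of each of 43 interferon-stimulated genes, from the largest to the smallest; the dashed line is the median of all 11070 genes tested (0.096) and the dotted line that of the members (0.23). All bars but that of Eif2ak2 rise above the dashed line.

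The wider interferon response was read from a list of 44 other responsive genes, of which 34 had a value. Like the members, this list was chosen with earlier results of these data known. It gave more lower than higher calls in both genotype comparisons. Without Dox 23 of the 34 fell in APC-KO and none rose, with a median of -0.48. Over all genes tested, 11.1% passed as lower and 13.8% as higher in that comparison. The 23 included the guanylate-binding protein gene Gbp6 (-1.27 ± 0.20), Ifi27l2a (-1.13 ± 0.25), the RNA helicase gene Ddx60 (-1.03 ± 0.19), the nuclease gene Isg20 (-0.73 ± 0.09) and Nlrc5 (-0.70 ± 0.12), the transactivator of class I antigen presentation genes. With Dox 10 fell and 2 rose, with a median of -0.12, where 7.99% of all genes tested passed as lower and 11.9% as higher. The 10 that fell were Gbp6 (-1.12 ± 0.20), Irgm2 (-0.70 ± 0.15), Nlrc5 (-0.61 ± 0.12), the immunoproteasome subunits Psmb9 (-0.58 ± 0.10), Psmb10 (-0.45 ± 0.10) and Psmb8 (-0.40 ± 0.09), the checkpoint ligand Cd274 (-0.53 ± 0.17), Isg20 (-0.46 ± 0.09), the peptide transporter Tap1 (-0.35 ± 0.11) and Trim21 (-0.30 ± 0.09). Ifitm1 (0.95 ± 0.19) and Ms4a4c (0.63 ± 0.19) rose. Dox passed for none of the 34 in either genotype, with medians of -0.04 in APC-KO and -0.31 in APC-WT tumours.

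Upstream of the members, 22 of 26 genes of interferon production and signalling were tested. Without Dox 2 of the 22 passed as higher and 3 as lower in APC-KO, where 24.9% of all genes tested passed. With Dox 2 passed as higher and none as lower, where 19.9% of all genes tested passed. Calls were no more frequent here than over the whole array. Without Dox the receptor chains Ifngr2 (0.47 ± 0.06) and Ifnar1 (0.29 ± 0.07) rose in APC-KO tumours, while Tlr3 (-0.52 ± 0.14), the kinase Jak2 (-0.31 ± 0.08) and the kinase Tbk1 (-0.23 ± 0.07) fell. With Dox Ifngr2 (0.20 ± 0.06) and Ifnar1 (0.21 ± 0.07) rose again, and none fell. Ifnb1, Ifna4 and Ifng lay under the level of 5.55 on all 12 arrays and were not tested. Ifng had log2 values of 3.77, 3.61 and 3.70 in APC-KO Dox tumours, 3.97, 4.10 and 3.96 in APC-KO no Dox tumours, 4.25, 4.90 and 4.94 in APC-WT Dox tumours and 5.04, 4.68 and 5.26 in APC-WT no Dox tumours, so its APC-KO tumours all lay below its APC-WT tumours at a level that the filter set aside.

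Most T cell markers and 2 of 3 NK cell markers tested were lower in APC-KO in both genotype comparisons. Most T cell markers were also lower with Dox in APC-WT tumours, without a call. Over all genes tested, 11.1% passed as lower in APC-KO without Dox and 7.99% with Dox. Of 6 T cell markers, 5 fell in APC-KO tumours without Dox (Cd3e, Cd3g, Cd3d, Cd8a and Icos; median of the 6 -0.64) and 4 with Dox (the same without Icos; median -0.55), and Cd8a was at -0.69 ± 0.15 and -0.78 ± 0.15. Their summed linear level was 418.9 to 626.0 in APC-KO Dox, 568.8 to 579.6 in APC-KO no Dox, 606.1 to 788.2 in APC-WT Dox and 789.4 to 1049 in APC-WT no Dox tumours. For Dox in APC-WT tumours the median of the 6 was -0.33, with 5 below 0 and none passed. The summed levels of APC-WT Dox and APC-WT no Dox tumours only just stayed apart, at most 788.2 against at least 789.4. The mean log2 values of the 6 markers did overlap, at 6.562 to 6.900 against 6.898 to 7.225. Of 3 NK cell markers tested, Klrd1 and Prf1 fell in both genotype comparisons (Prf1 -0.80 ± 0.19 without Dox and -1.004 ± 0.19 with Dox). The third, Eomes, did not pass. It was higher in APC-KO Dox than in APC-WT Dox tumours, at 7.66 to 7.82 against 7.51 to 7.61, and overlapped between genotypes without Dox. The 4 NK cell markers with a value summed to 477.7 to 660.8 in APC-KO Dox, 526.6 to 661.1 in APC-KO no Dox, 642.9 to 704.8 in APC-WT Dox and 602.5 to 817.2 in APC-WT no Dox tumours. The part of these lymphocyte markers in the lower interferon-stimulated genes was not tested.

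The 10 macrophage and monocyte markers summed to 30570 to 30880 in APC-KO Dox, 31750 to 32670 in APC-KO no Dox, 31730 to 33870 in APC-WT Dox and 29870 to 32780 in APC-WT no Dox tumours. The sums were close, although those of APC-KO Dox lay below all of APC-KO no Dox and APC-WT Dox. In APC-KO against APC-WT, Csf1r rose without Dox (0.28 ± 0.06), and with Dox Ccr2 rose (0.77 ± 0.17) and Lyz2 fell (-0.37 ± 0.06). Of 5 fibroblast markers, Pdgfra rose without Dox, and Col1a1, Col3a1 and Pdgfra rose with Dox. Of 3 endothelial markers, Cdh5 and Kdr rose with Dox and none passed without it. Over all genes tested, 13.8% passed as higher without Dox and 11.9% with Dox. Of 2 conventional dendritic cell markers tested, Zbtb46 fell without Dox, where 11.1% of all genes passed as lower. The part of these markers was not tested. The neutrophil markers S100a8, S100a9 and Csf3r rose in APC-KO against APC-WT tumours without Dox (S100a8 2.94 ± 0.64), while S100a8 and S100a9 fell with Dox in APC-KO tumours (S100a8 -4.07 ± 0.64) and in APC-KO against APC-WT with Dox. The summed level of 5 neutrophil markers was 173.0 to 234.6 in APC-KO Dox, 511.5 to 1857 in APC-KO no Dox, 293.4 to 652.1 in APC-WT Dox and 181.5 to 354.7 in APC-WT no Dox tumours, and its part was not tested either. Of 5 markers of plasmacytoid dendritic cells, the cells known for making type I interferon, 4 (Siglech, Ccr9, Ly6d and Pacsin1) lay under the level of 5.55 on all arrays, as did both B cell markers with a value (Cd79a and Ms4a1).

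Of the 7 markers of colon epithelium, 2 were tested, Epcam and the keratin gene Krt8. Only Krt8 passed in the first comparison. It had 9.02, 7.20 and 8.57 in APC-KO Dox, 10.09, 9.13 and 9.58 in APC-KO no Dox, 9.59, 9.35 and 9.47 in APC-WT Dox and 11.65, 10.70 and 10.12 in APC-WT no Dox tumours, the last 3 above the other 9. Krt8 fell in APC-KO without Dox (-1.22 ± 0.41, adjusted p 0.0447) and was at -1.21 ± 0.41 with Dox (0.0556), at -1.34 ± 0.41 for Dox in APC-KO and at -1.35 ± 0.41 for Dox in APC-WT tumours, and none of these last 3 passed. Epcam went the other way without a call. It had 7.19 to 7.42 in APC-KO no Dox and 7.24 to 7.35 in APC-WT Dox, against 7.04 to 7.15 in APC-WT no Dox tumours. The summed linear level of the 7 epithelial markers was 415.9 to 757.8 in APC-KO Dox, 832.3 to 1338 in APC-KO no Dox, 904.4 to 1036 in APC-WT Dox and 1352 to 3464 in APC-WT no Dox tumours. In the APC-WT no Dox tumours this sum came mostly from Krt8, and its part in the result was not tested.

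**Figure D5:**
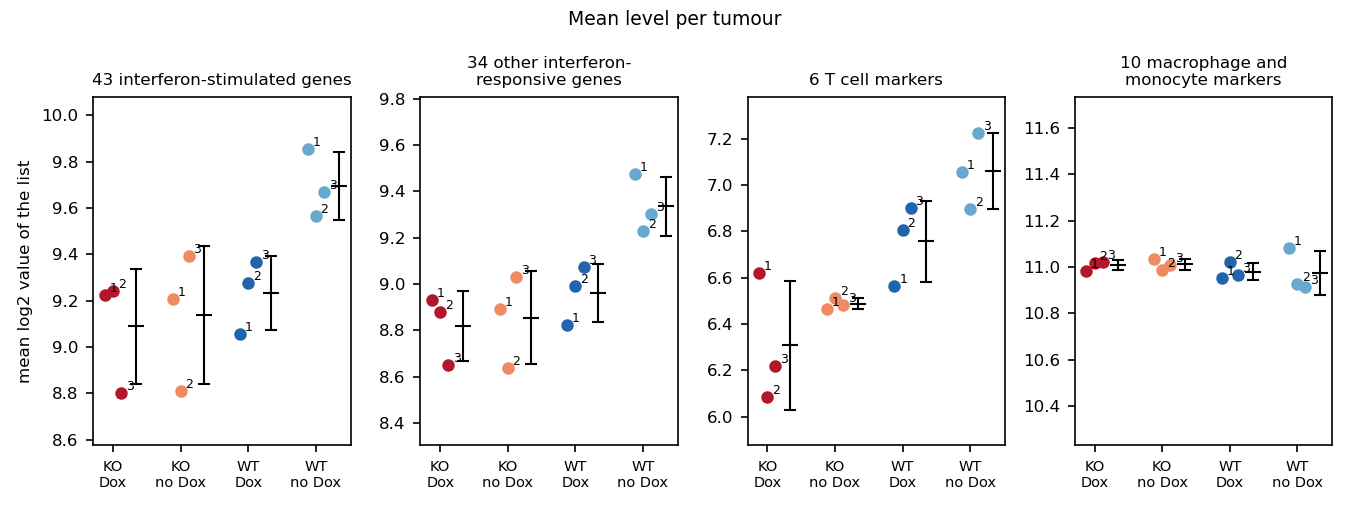
Mean log2 value per tumour (vertical axis, spanning 1.5 log2 units in every panel) of 4 lists by group; numbers are replicates and the bar is the mean with its SD (n = 3). The interferon-stimulated genes and the other interferon-responsive genes are highest in the APC-WT no Dox tumours. The T cell markers have lower means in both APC-KO groups, with overlap between the genotypes under Dox. The macrophage and monocyte markers are nearly level.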

How the data were processed

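RNA of 12 tumours was measured on Affymetrix Mouse430_2 arrays. The deposited values are log2 expression values per probe set, made by the authors with MAS5 per the submitters' processing notes; no source used here gives its version or scaling. MAS5 summarises each array on its own, so between-array scaling could move the differences. The 64 control probe sets were set aside, probe sets with 1 gene symbol were kept, and the brightest per gene was used. Genes with a mean of at least the median of all probe set means (5.55) were tested: 11070 genes, with 7123 set aside. Group means of all 12 arrays were fitted with limma 3.58.1 in R 4.3.3 (eBayes with a trend), with Benjamini-Hochberg adjustment over the 11070 genes, 5 contrasts and 8 residual degrees of freedom. The precision is limited by 3 arrays per group.

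The members and lists were chosen with earlier results of these data known. Named genes were the members that passed, the brightest of each role and the 5 of smallest p in each contrast; others are given more briefly. Alternatives were the mean of probe sets, other filters, quantile normalization, eBayes without a trend, array quality weights, only the groups compared, a replicate block and leaving out each tumour. The fit was tested on simulated data: of 200 altered genes per contrast, those changed by 1 log2 unit were found in 97 to 100% of cases and those changed by 0.5 in 55 to 87%. The altered genes were drawn at random and varied independently. The members spread more (median pooled SD 0.23 against 0.096 for all genes tested) and ran together, so these rates do not apply to the members. Promoter windows are from RefSeq (GRCm38.p6).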

Additional observations from a re-analysis of the deposited data

How the results depend on the processing

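No member that passed changed direction under the alternatives tried, while the medians over members with Dox between genotypes and for Dox in APC-KO, both near 0, crossed 0 in some fits with 1 tumour left out. The count of members lower in APC-KO without Dox was 32, and 18 to 37 with 1 tumour left out (median of members -0.66 to -0.38). With Dox it was 7, falling to 4 under eBayes without a trend, to 4 under the replicate block, and 4 to 7 with 1 tumour left out (median -0.17 to 0.04). For Dox in APC-KO tumours the count was 1; it was 0 for averaged probe sets, for eBayes without a trend and under the replicate block, and 0 to 1 with 1 tumour left out (median -0.18 to 0.12). For Dox in APC-WT tumours it was 0, 13 with array quality weights, 4 with only the groups compared, and 0 to 4 with 1 tumour left out (median -0.52 to -0.36); over all genes tested that comparison gave 3 calls, 653 with the weights, 18 with only the groups compared and 418 without APC-WT no Dox replicate 3. The interaction gave 0 members in each fit with 1 tumour left out (median 0.29 to 0.54). The groups share replicate numbers. Of 18 same-numbered pairs, 4 had deviations correlated above 0.1 (-0.22 to 0.18). Differently numbered pairs were not set beside them, so whether the numbers pair the samples was not settled. With the replicate block the count without Dox was 31. The number of arrays limits what differences of a size near the spread within groups could be detected.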
